A study of Homo sapiens with 6 samples.

Results

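Zinc in a cell is held by metallothioneins and moved by 2 families of carriers, and 10 genes of this system were followed in Ovcar8 cells with and without serum. They were taken by symbol from the deposited count table: the metallothioneins MT1E, MT1F, MT1G, MT1M, MT1X and MT2A, the transcription factor MTF1, the zinc exporter SLC30A1 and the zinc importers SLC39A6 and SLC39A10. All 10 symbols were found, each on a single row, among 58735 genes. Ovcar8 is a human line derived from high-grade serous ovarian cancer and long used in culture. It was grown in RPMI-1640, and the groups were 3 libraries kept with 5% fetal bovine serum (FBS) and 3 libraries kept without serum (serum starved), both for 48 h. The labels give no genotype and no further agent for either group. Nothing in the labels tells whether libraries within a group were grown as separate cultures. The p-values therefore reflect the spread among these 6 libraries, which may be technical.

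Metallothioneins are small, cysteine-rich proteins of the cytosol that bind zinc and copper and trap cadmium. When free zinc rises, MTF1 binds it through its zinc fingers, enters the nucleus and switches on the metallothionein genes and SLC30A1 through short promoter motifs called metal response elements. SLC30A1 carries zinc out across the plasma membrane, whereas SLC39A6 and SLC39A10 carry it in, and SLC39A10 is known to be held down by MTF1 when zinc is plentiful. Serum is a main source of zinc for cultured cells, and glucocorticoids can also induce metallothionein genes.

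The libraries held 16379416 to 19558484 counts, and their log2 CPM (CPM, counts scaled to library size and normalized by the trimmed mean of M-values, TMM) correlated across genes at 0.904 to 0.975 within groups and 0.911 to 0.973 between them. Serum-starved replicate 3 stood apart in gene length: its shortest decile of genes had a median log2 deviation of -0.53 from the mean of the 6 libraries, against 0.09 to 0.21 in the other 5. FBS replicate 1 and serum-starved replicate 1 stood apart in GC content, with medians of 0.79 and -0.70 for the decile of lowest GC. Serum-starved replicate 3 differed in GC content too. For the decile of highest GC, serum-starved replicates 1 and 3 had medians of 0.48 and -0.47, against -0.27 to 0.17 in the other libraries. These values bear on the genes described here. Only 4.23% to 12.1% of the tested genes were shorter than the tested metallothioneins, and 2% had a lower transcript GC content than SLC30A1. The 10 carcinoma markers summed to 7157 to 12088 CPM with FBS against 8533 to 12063 CPM in starved cells. Among them, PAX8 averaged 64.3 CPM with FBS against 78.7 CPM in starved cells and KRT8 6130 against 6090 CPM. WT1 (1.88 and 1.91 CPM), EPCAM (2.70 and 2.50 CPM) and KRT19 (0.0169 and 0.0732 CPM) were low, and MUC16 had no counts. The 5 leukocyte markers summed to 1.27 to 3.57 CPM with FBS against 1.89 to 2.99 CPM in starved cells, and CD3E had no counts. The 4 endothelial markers summed to 0.61 to 0.834 CPM with FBS against 1.65 to 4.55 CPM in starved cells, of which VWF averaged 0.347 and 2.72 CPM. The 5 fibroblast markers summed to 318 to 577 CPM with FBS against 762 to 832 CPM in starved cells. Nearly all of that sum was COL1A1, while COL1A2 and DCN had no counts. The part of these marker differences in the results below was not tested.

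The metal response element is the sequence feature that ties MTF1 to its targets, so the upstream DNA is shown for the 3 matched members it is best known for. The 250 bases before the RefSeq start site (GRCh38.p14) were available for 6 of the 10 members (MT1X, MT2A, MTF1, SLC30A1, SLC39A6 and SLC39A10). They are printed 5′ to 3′ on the gene's strand, and capitals mark the core letters TGCACNC or TGCGCNC on either strand.
MT2A, chr16:56608334-56608583, plus strand: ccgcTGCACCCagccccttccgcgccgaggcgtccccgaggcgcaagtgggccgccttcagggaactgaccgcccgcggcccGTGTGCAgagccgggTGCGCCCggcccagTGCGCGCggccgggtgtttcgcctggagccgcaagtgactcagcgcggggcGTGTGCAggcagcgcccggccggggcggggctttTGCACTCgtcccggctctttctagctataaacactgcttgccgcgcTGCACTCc
MT1X, chr16:56682220-56682469, plus strand: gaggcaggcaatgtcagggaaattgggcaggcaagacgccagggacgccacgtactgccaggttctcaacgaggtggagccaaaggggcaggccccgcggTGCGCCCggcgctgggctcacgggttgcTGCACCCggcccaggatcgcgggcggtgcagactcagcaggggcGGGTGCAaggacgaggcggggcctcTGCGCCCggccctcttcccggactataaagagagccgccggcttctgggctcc
SLC30A1, chr1:211579162-211579411, minus strand: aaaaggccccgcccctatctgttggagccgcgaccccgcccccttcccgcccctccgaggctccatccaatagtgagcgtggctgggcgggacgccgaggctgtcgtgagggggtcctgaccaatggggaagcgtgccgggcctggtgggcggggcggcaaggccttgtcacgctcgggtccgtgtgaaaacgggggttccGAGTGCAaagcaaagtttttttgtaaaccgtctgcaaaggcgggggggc
MT2A held 7 such cores, 5 of TGCACNC and 2 of TGCGCNC, and MT1X held 4, 2 of each. SLC30A1 held 1, at -49 to -43 from the start site, and SLC39A6 held 1, at -17 to -11. No core was found in the windows of MTF1 and SLC39A10, including the alternative start of SLC39A10. Over all 35116 windows of this length, 24.8% held at least 1 core, 0.37% held 4 or more and 0.0513% held 6 or more. The cores did not overlap one another in the printed windows. In the files' annotation MT2A begins at 56608199, upstream of its window, so the window lies inside the annotated gene. MT1X begins at 56682424 there, within its window. SLC30A1, on the minus strand, begins at 211578742 there, so its window lies upstream of the annotated gene and does not adjoin it. A match is a run of letters and was not measured as a binding site.

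Metallothionein transcripts were abundant in this line and came almost wholly from a pair of genes. FPKM, as deposited, divides reads by gene length and by a library size that is scaled between libraries. Per length, MT2A stood at 1248 ± 200 FPKM with FBS and MT1E at 371 ± 39.9 FPKM (SD, n = 3). MT1M followed at 16.3 ± 2.66, MT1X at 12.5 ± 2.45 and MT1F at 2.24 ± 0.543 FPKM. The carriers and MTF1 lay lowest: SLC39A6 at 2.12 ± 0.397, SLC30A1 at 1.38 ± 0.611, MTF1 at 0.733 ± 0.0399 and SLC39A10 at 0.696 ± 0.207 FPKM. Of the neighbours in this order, MT2A and MT1E, MT1E and MT1M, and MT1X and MT1F were separated by more than their SDs. The mean ± SD ranges of MT1M and MT1X overlapped, as did those of each neighbouring pair from MT1F down to SLC39A10. MT1G had no count in any library. A count of 0 allows up to 3 counts, which is 0.132 to 0.204 CPM, so MT1G was not detectable at this depth. The order depends on the length used: the deposited lengths merge all annotated exons, 1773 bases for MT1X against 450 for its principal transcript (MT1X-201). Per principal transcript, MT1X would stand at 49.3 ± 9.65 and MT1M at 18.5 ± 3.02 FPKM with FBS, which turns their order around. MT1F would stand at 6.14 ± 1.49 and SLC39A6 at 2.20 ± 0.412 FPKM, so that their ranges no longer overlap. SLC39A10 at 0.886 ± 0.264 would come before MTF1 at 0.737 ± 0.0401 FPKM, with ranges that still overlap.

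The genes lie side by side on chromosome 16 (GRCh38). From MT2A (ENSG00000125148, 56608199 to 56609497) to MT1X (ENSG00000187193, 56682424 to 56684196) the cluster spans 76 kb, and the table lists 16 metallothionein genes and pseudogenes there and just upstream. Expression was uneven along it. MT2A held 137590 counts over the 6 libraries and MT1E, 17.3 kb downstream, 34632. MT1A, MT1H, MT1G and MT4 held none, although MT1G and MT1H lie between MT1F, with 374 counts, and MT1X, with 1838. The pseudogene MT1L, 9.28 kb from MT2A, held 2455.

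**Figure D1:**
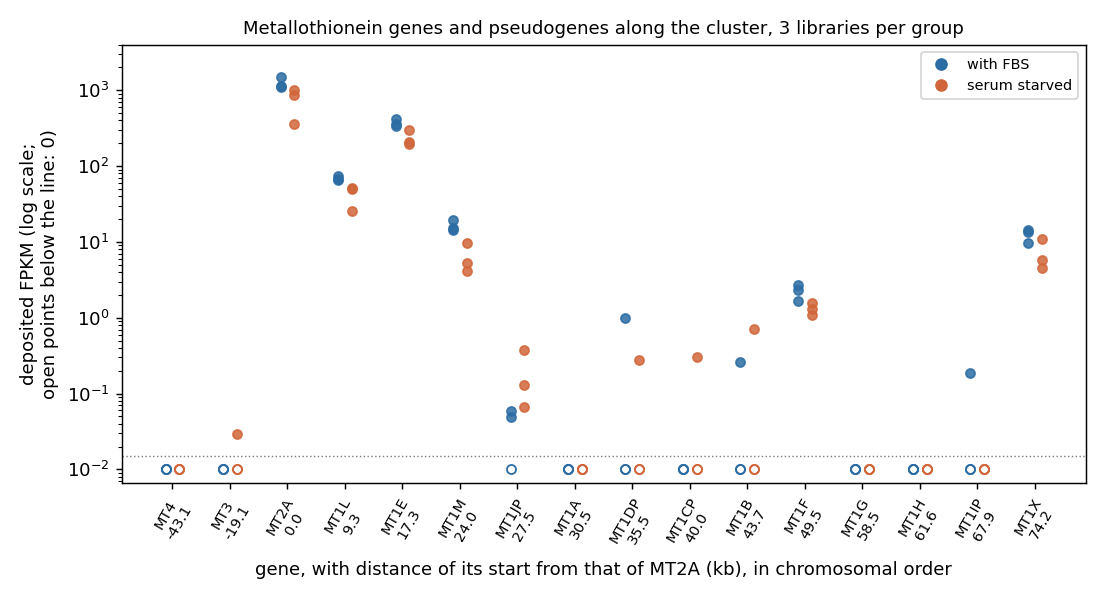
Deposited FPKM (log axis) of the 16 metallothionein genes and pseudogenes in chromosomal order, with the distance of each start from that of MT2A in kb; points are the 3 libraries of each group, and open points below the dotted line are values of 0, which overlap. MT2A and MT1E stand far above the others, and MT4, MT1A, MT1G and MT1H have a 0 in every library.

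The comparison asks whether these transcripts differ after 48 h without serum. None of the 9 tested genes passed the test. Mean CPM of the 5 tested metallothioneins was 1.58-fold (MT1E) to 2.56-fold (MT1M) higher with FBS than without serum. For SLC30A1 the ratio was 2.91, but its log2 fold change went from -1.56 to -0.63 with a correction of each library for GC content and gene length, after which its groups overlapped. The test was edgeR's quasi-likelihood F test over 13772 genes with adjustment for all of them (adjusted p under 0.05), and 0.283% of all genes passed it (0.0436% lower without serum). MT1G had too few counts to be tested. At an unadjusted p under 0.05, 4 of the 9 members were lower (MT1M, SLC30A1, MT1E and MT1X) and none higher, against 4.37% lower and 6.01% higher of all genes (10.4% in either direction). The fold change was below 0 in 8 of the 9, against 51.5% of all genes. The groups did not overlap in 5 of the 9 (MT1E, MT1F, MT1M, MT2A and SLC30A1), each lower without serum, against 7.65% of all genes. After the GC and length correction 3 of the 9 (MT1E, MT1M and MT2A) did not overlap, against 10.9% of all genes. DESeq2 passed 0 of the 9 (1.23% of all genes), with 5 lower at an unadjusted p under 0.05 (4.97% of all genes). With limma-voom 0 of the 9 passed (0.276% of all genes), and 5 were lower at an unadjusted p under 0.05 (5.71% of all genes). With the correction, edgeR passed 0 of the 9 (0.835% of all genes), and 3 were lower at an unadjusted p under 0.05 (7.49% of all genes). Without serum-starved replicate 3 it again passed 0 of the 9, against 1.81% of all genes (0.938% lower). The median log2 fold change was -0.74 over the 9 members and -0.02 over all genes. With the GC and length correction these medians were -0.57 and 0.01, and 7 of the 9 members stayed below 0. In RNA from whole cultures, fewer cells that express a gene and less RNA per cell cannot be told apart.

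MT2A, the most abundant metallothionein transcript here, was at 1511, 1512 and 1960 CPM in FBS replicates 1 to 3 and at 1152, 1340 and 482 CPM in serum-starved replicates 1 to 3. Every serum-starved library lay below every library with FBS, and replicate 3 was by far the lowest. This gave a log2 fold change of -0.74 (95% interval -1.53 to 0.04, edgeR adjusted p = 0.506). Without serum-starved replicate 3 it was -0.42 (edgeR adjusted p = 0.457). After the GC and length correction, that library's level was 757 against 991 and 1193 CPM in the other serum-starved libraries and 1341 to 1883 CPM with FBS. The groups still did not overlap on that scale, and the estimate was -0.68 (interval -1.18 to -0.17, edgeR adjusted p = 0.179).

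MT1E (ENSG00000169715, chromosome 16, 56625475 to 56627112) is the second major isoform in these cells. It was at 453, 387 and 360 CPM in the FBS libraries and at 322, 224 and 214 CPM in the starved ones. Again the groups did not overlap, and here serum-starved replicate 2 was nearly as low as replicate 3. For MT1E the log2 fold change was -0.66 (interval -1.29 to -0.03, edgeR adjusted p = 0.457). Corrected for GC and length it was -0.45 (interval -0.92 to 0.01, edgeR adjusted p = 0.328), and the groups still did not overlap.

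MT1M (ENSG00000205364, chromosome 16, 56632233 to 56633986) is a minor isoform and had the lowest p of the 9 tested genes. It was at 19.0, 13.8 and 14.6 CPM in the FBS libraries and at 3.94, 9.39 and 5.15 CPM in the starved ones, from 58 to 373 counts a library. The highest serum-starved library lay below the lowest library with FBS. Its log2 fold change was -1.35 (interval -2.19 to -0.52, unadjusted p = 0.00318, edgeR adjusted p = 0.256). In DESeq2 the adjusted p was 0.0528, the smallest for any member under any alternative in the plan. Corrected for GC and length, the estimate was -1.14 (interval -1.94 to -0.34, edgeR adjusted p = 0.158) and the groups still did not overlap.

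MT1X was at 17.9, 24.4 and 25.8 CPM in the FBS libraries and at 20.1, 10.6 and 8.37 CPM in the starved ones. Serum-starved replicate 1 lay above FBS replicate 1, so the groups overlapped. MT1X had a log2 fold change of -0.81 (interval -1.58 to -0.03, edgeR adjusted p = 0.457), and -0.68 after the correction. MT1F (ENSG00000198417, chromosome 16, 56657694 to 56660698), the least abundant of the 5 tested metallothioneins, was at 5.33, 4.53 and 3.18 CPM in the FBS libraries and at 2.51, 2.09 and 3.04 CPM in the starved ones. Its groups were close, with 49 counts in FBS replicate 3 and 69 in serum-starved replicate 3, and after the GC and length correction they overlapped. MT1F had a log2 fold change of -0.77 (interval -1.74 to 0.20, edgeR adjusted p = 0.589), and -0.57 after the correction.

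**Figure D2:**
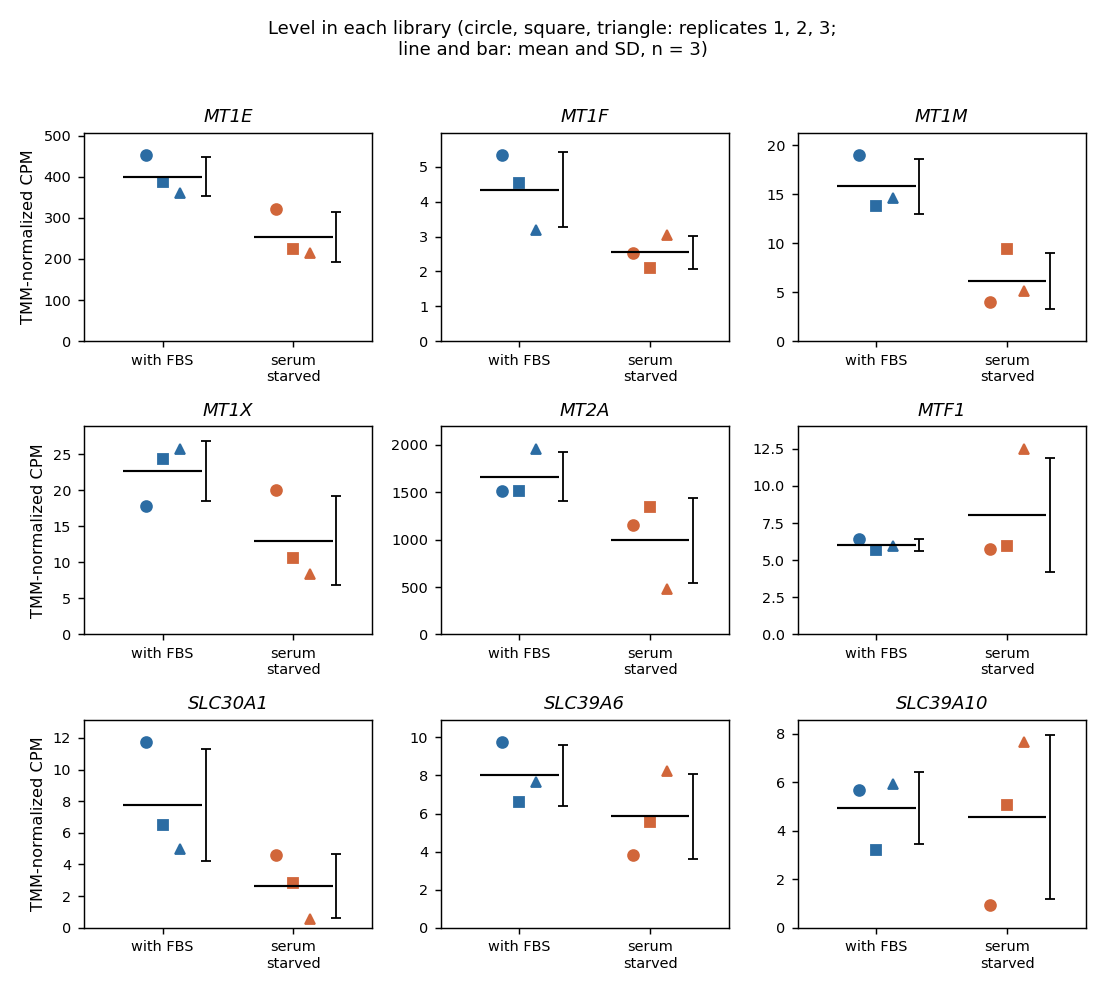
TMM-normalized CPM of the 9 tested genes in each library; circles, squares and triangles are replicates 1, 2 and 3, and the line and bar are the mean and SD (n = 3). MT1E, MT1F, MT1M, MT2A and SLC30A1 show no overlap between groups. Serum-starved replicate 3 is the lowest point for MT2A (482 CPM), MT1E (214 CPM), MT1X (8.37 CPM) and SLC30A1 (0.572 CPM). It is the highest for MTF1 (12.5 CPM) and SLC39A10 (7.66 CPM).

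Metallothionein genes are close copies of one another, so reads can be split among them. Of the 50-base stretches in its annotated transcripts, MT2A shared 3.02% with other genes, MT1E 7.1%, MT1M 9.87%, MT1X 18.3%, MT1F 1.22% and MT1G 16.5%. How the authors' counting treated such reads is not given in the sources used here, so the minor isoforms, MT1G and the pseudogenes are uncertain. Summing the 6 genes removes any exchange of reads among them, though not with the pseudogenes or with AC026461.1, which shares stretches with MT1X. Reads that the counting may have dropped are not recovered by a sum. The sum was 2006, 1942 and 2363 CPM with FBS and 1501, 1586 and 712 CPM without serum, without overlap between groups. The means were 2104 ± 227 and 1267 ± 482 CPM (SD, n = 3), a ratio of 1.66. Metallothionein reads thus made up 0.189% to 0.222% of all counts with FBS and 0.0827% to 0.159% without serum. The share of MT2A in the sum was 75.3%, 77.8% and 82.9% with FBS and 76.8%, 84.5% and 67.7% without serum, so the mix of isoforms overlapped between groups.

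**Figure D3:**
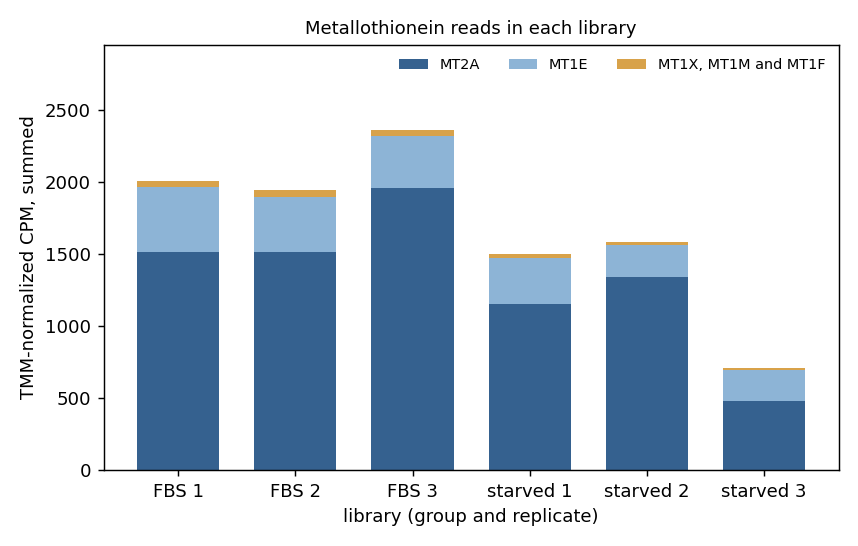
Summed TMM-normalized CPM of the detected metallothioneins in each library, stacked by gene, without the GC and length correction. The 3 libraries with FBS reach 1942 to 2363 CPM and the serum-starved libraries 712 to 1586 CPM, and MT2A makes up most of each bar.

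The remaining 15 metallothionein genes and pseudogenes in the table added little. Of them 5 had no counts in any library, and MT1L was the single one with enough counts to be tested. MT1L was at 28.7, 27.1 and 31.3 CPM in the FBS libraries and at 21.1, 21.9 and 10.7 CPM in the starved ones, with no overlap (log2 fold change -0.70, edgeR adjusted p = 0.481). MT2P1, a metallothionein pseudogene, held 30, 21 and 5 counts with FBS and 3, 4 and 4 without serum.

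MTF1 itself (ENSG00000188786, chromosome 1, 37809567 to 37859620) was at 6.45, 5.66 and 5.98 CPM in the FBS libraries and at 5.78, 5.93 and 12.5 CPM in the starved ones. Serum-starved replicate 3 was high, the other 5 libraries lay close together, and the groups overlapped. The fold change of MTF1 was 0.42 on the log2 scale (interval -0.46 to 1.30, edgeR adjusted p = 0.779), and -0.05 without serum-starved replicate 3. That library had a median log2 deviation of 0.47 for the longest decile of genes, and 79.9% of tested genes are shorter than MTF1. After the GC and length correction its level was 9.57 CPM against 5.8 to 7.34 CPM in the other libraries.

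SLC30A1 (ENSG00000170385, chromosome 1, 211571568 to 211578742), the exporter, had the lowest fold change of the members. It was at 11.7, 6.49 and 5.00 CPM in the FBS libraries and at 4.62, 2.80 and 0.572 CPM in the starved ones, the last from 13 counts. The groups did not overlap, although serum-starved replicate 1 came close to FBS replicate 3. On the log2 scale the fold change was -1.56 (interval -2.80 to -0.32, edgeR adjusted p = 0.359). SLC30A1 was also the gene most moved by the GC and length correction. On that scale the libraries with FBS were at 6.56, 6.32 and 4.87 CPM and the serum-starved libraries at 8.28, 3.41 and 0.495 CPM, so serum-starved replicate 1 became the highest of all. The estimate was then -0.63 (interval -1.96 to 0.70, edgeR adjusted p = 0.666). Both values moved with single libraries. Leaving out serum-starved replicate 3 gave -1.07 from the counts and -0.06 with the correction, whereas leaving out serum-starved replicate 1 gave -2.21 and -1.70.

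SLC39A6 (ENSG00000141424, chromosome 18, 36108532 to 36129385) was at 9.76, 6.61 and 7.67 CPM in the FBS libraries and at 3.81, 5.54 and 8.23 CPM in the starved ones. The groups overlapped, and the log2 fold change was -0.45 (interval -1.32 to 0.43, edgeR adjusted p = 0.763). SLC39A10 (ENSG00000196950, chromosome 2, 195575977 to 195737702) was at 5.69, 3.22 and 5.91 CPM in the FBS libraries and at 0.952, 5.05 and 7.66 CPM in the starved ones. Its lowest and highest library were both serum-starved, replicates 1 and 3. SLC39A10 had a log2 fold change of -0.11 (interval -1.30 to 1.09, edgeR adjusted p = 0.967), and 0.05 after the correction. Without serum-starved replicate 1 the value was 0.38, and without serum-starved replicate 3 it was -0.71. Neither importer differed between groups beyond its spread, and the interval for SLC39A10 takes in a log2 difference of 1 in either direction.

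**Figure D4:**
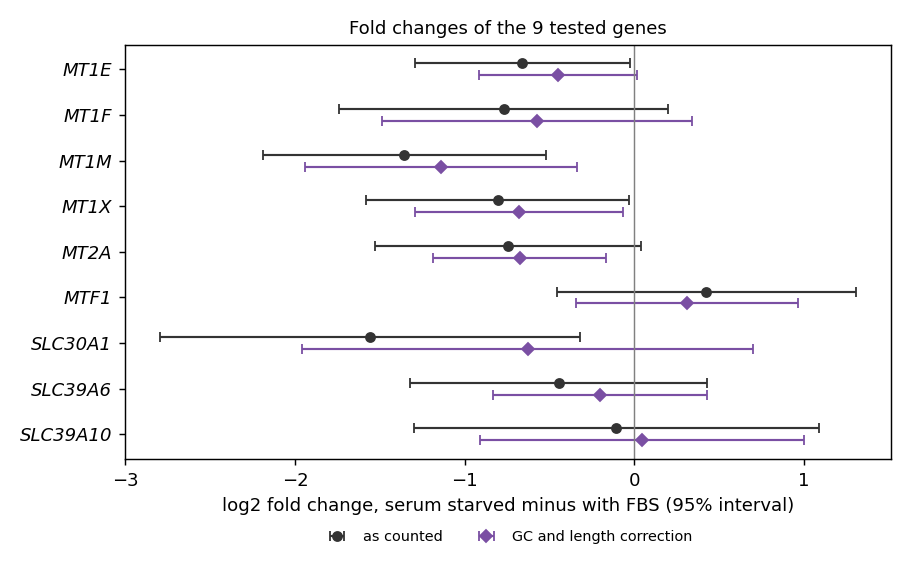
Log2 fold changes (serum starved minus with FBS) of the 9 tested genes with 95% intervals, from the counts (circles) and with the GC and length correction (diamonds). MT1E, MT1F, MT1M, MT1X and MT2A lie between -1.35 and -0.45 on both scales, while SLC30A1 moves from -1.56 to -0.63.

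The other zinc carriers did not pass either. The counts at an unadjusted p in this and the next lists stand against 4.37% lower and 6.01% higher of all genes. Of 9 further exporters of the SLC30 family, 6 were tested and 0 passed edgeR or DESeq2, with 1 higher (SLC30A3) and none lower at an unadjusted p under 0.05 (median log2 fold change -0.08). SLC30A7 and SLC30A6, exporters that load the secretory pathway, were the most abundant, SLC30A7 at 24.1 ± 5.39 CPM in the FBS libraries and 20.5 ± 11.5 CPM in the starved ones and SLC30A6 at 14.3 ± 3.58 and 16.2 ± 6.55 CPM (SD, n = 3). Of 12 further importers of the SLC39 family, 9 were tested and 0 passed edgeR or DESeq2, none of them at an unadjusted p under 0.05 (median 0.09). Both medians are small and change sign with the GC and length correction, to 0.11 for the exporters and -0.07 for the importers. In the corrected fit none of these carriers passed either. At an unadjusted p under 0.05 it had 1 exporter higher (SLC30A6, log2 fold change 0.68, edgeR adjusted p = 0.190), against 8.48% of all genes. It had 2 importers lower, SLC39A4 (log2 fold change -0.77, interval -1.35 to -0.19, edgeR adjusted p = 0.180) and SLC39A3 (-0.48, edgeR adjusted p = 0.312), against 7.49% of all genes. SLC39A4, the importer mutated in acrodermatitis enteropathica, was at 199 ± 37.2 and 139 ± 74.0 CPM. SLC39A7, which releases zinc from the endoplasmic reticulum, was at 146 ± 17.5 and 157 ± 41.5 CPM. Both importers were far above SLC39A6 and SLC39A10 in CPM, a scale that does not divide by length.

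Copper is also bound by metallothioneins, and 9 of 13 copper genes were tested. None passed edgeR or DESeq2, with 1 higher at an unadjusted p under 0.05 (median log2 fold change -0.22). The corrected fit passed none, against 0.835% of all genes. At an unadjusted p under 0.05 it had 2 lower, against 7.49% of all genes, and 2 higher, against 8.48%. In the uncorrected fit the higher gene was ATP7B, a copper-exporting ATPase (log2 fold change 1.13, edgeR adjusted p = 0.316). ATP7B was at 6.80 ± 2.17 CPM in the FBS libraries and 14.9 ± 4.12 CPM in the starved ones. The most abundant were STEAP3, a metalloreductase, at 51.9 ± 7.80 and 73.1 ± 5.997 CPM, and ATOX1, a copper chaperone, at 66.1 ± 7.91 and 44.5 ± 26.3 CPM.

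Metal stress also induces heat shock and NRF2 target genes, and all 13 listed genes of this kind were tested. None passed edgeR in the uncorrected fit, and the median log2 fold change was -0.23. In that fit 3 had an unadjusted p under 0.05. Of these, 2 were lower (GCLM and HSPH1), against 4.37% of all genes, and 1 was higher (SLC7A11), against 6.01%. The corrected fit had 3 lower at an unadjusted p under 0.05, against 7.49% of all genes, and 1 higher, against 8.48%. NQO1, a quinone reductase, was at 220 ± 46.0 and 196 ± 27.1 CPM, and DNAJB1, a heat shock co-chaperone, at 218 ± 73.7 and 185 ± 29.3 CPM. GCLM, the modifier subunit of the enzyme that limits glutathione synthesis, was the 1 gene of the list to pass DESeq2 (adjusted p = 0.0038), which passed 1.23% of all genes, and the edgeR fit with the GC and length correction (adjusted p = 0.015), which passed 0.835%. It was at 56.8, 34.9 and 39.2 CPM in the FBS libraries and at 11.4, 17.6 and 19.4 CPM in the starved ones, without overlap (log2 fold change -1.43, interval -2.11 to -0.75, edgeR adjusted p = 0.0799 in the uncorrected fit). Of the glucocorticoid-induced genes, 8 of 10 were tested and 0 passed edgeR or DESeq2, with 1 higher at an unadjusted p under 0.05 (TSC22D3, log2 fold change 1.15) and a median of -0.24. DUSP1, a MAP kinase phosphatase, was at 302 ± 15.8 and 227 ± 57.8 CPM, and ERRFI1, a feedback inhibitor of EGFR, at 42.9 ± 14.2 and 35.9 ± 12.8 CPM.

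**Figure D5:**
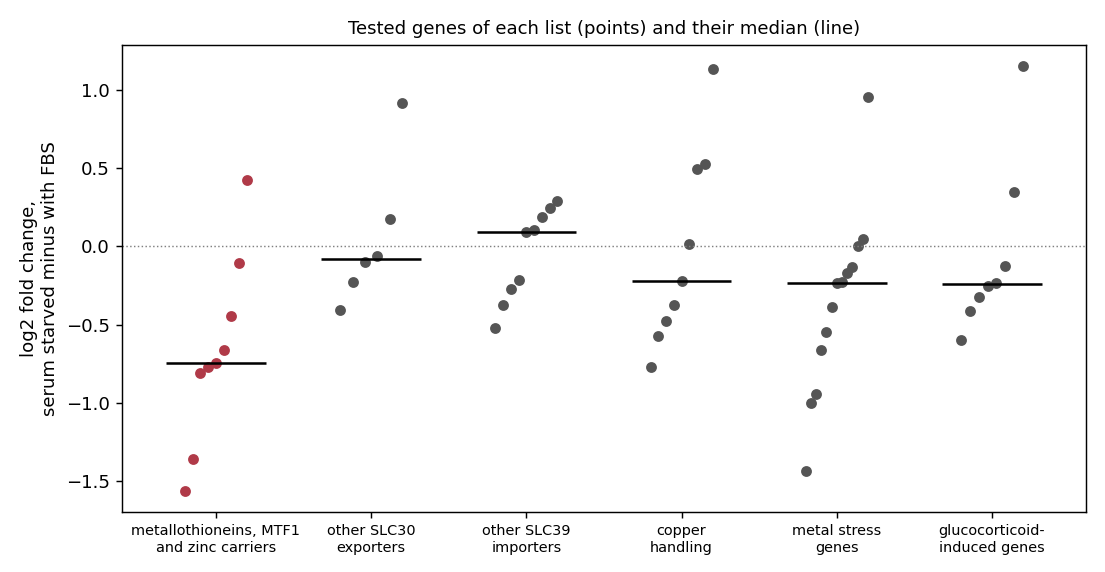
Log2 fold changes of the tested genes of each list (points) and the median of each list (line). The metallothioneins, MTF1 and zinc carriers have a median of -0.74, and the medians of the other 5 lists shown lie between -0.24 and 0.09.

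The genes around the cluster were read in the same fit. Within 500 kb of its ends, 10 other genes were tested, of which 3 had a fold change below 0 (51.5% of all genes), and their median log2 fold change was 0.48 (range -0.45 to 1.42). None passed edgeR (0.283% of all genes), and 3 had an unadjusted p under 0.05, all higher without serum (6.01% of all genes). HERPUD1, an endoplasmic reticulum stress gene, was the 1 that passed DESeq2 (adjusted p = 0.00945), which passed 1.23% of all genes. Its log2 fold change was 1.42 (edgeR adjusted p = 0.109). The difference of these 10 genes from the metallothioneins was not tested.

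Likeness was measured as the root mean square difference of centred log2 CPM over the 6 libraries, among 9240 genes with a mean of at least 5 CPM. The 5 genes nearest to MT2A were PFDN5 (0.07), DCPS (0.10), CHCHD5 (0.12), ATP6V1F (0.13) and TMED1 (0.13). Among the members, the metallothionein nearest to MT2A was MT1X at 0.40, with 901 genes nearer, and MT1E was at 0.47, with 1428 nearer. The distance of the tested pseudogene MT1L from MT2A was not read out, so MT1L may lie nearer than MT1X. These 6 points are shared by all genes and carry the length and GC differences given above, so the distances are a description. The 5 genes nearest to SLC39A10 were CD46 (0.18), PDK1 (0.20), NANP (0.21), MIS12 (0.23) and INTS12 (0.26), and the other importer SLC39A6 was at 0.62.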

How the data were processed

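RNA-seq of 6 Ovcar8 libraries was analysed from the deposited whole-number gene counts, with the deposited FPKM as an alternative and for levels per length. STAR 2.6.1, DESeq2 and the build GRCh38 are named in the submitters' processing notes, without their roles. The counting tool, its use of strand and its handling of reads that match several genes are not stated in the sources used here. FPKM rebuilt from each count, the gene length and a DESeq2 size factor matched the deposited FPKM (ratio 1 in every library), so the authors' FPKM are scaled between libraries. Groups and replicate numbers come from the sample titles.

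Genes were kept by filterByExpr (minimum count 10, total 15) and TMM-scaled, then tested for serum starved minus FBS in edgeR 4.0.16 (robust glmQLFit and glmQLFTest, R 4.3.3) with Benjamini-Hochberg adjustment at 0.05; 9 of the 10 members were kept. The SE is the log2 fold change divided by the root of F, and the 95% interval uses its t quantile. The GC and length correction fitted splines with 5 degrees of freedom per library to transcript GC content (GENCODE 29, 13768 of 13772 genes) and gene length, entered as offsets. DESeq2 1.42.0 and limma 3.58.1 (voom, and log2(FPKM + 1) or log2(FPKM + 0.1) with mean FPKM of at least 0.5) were alternatives. Scripts were tested on simulated data. Floors (3 counts) cover counting error only. Named were all members, per list the members that passed and the 2 most abundant, and the 5 nearest genes to MT2A and SLC39A10. SLC30A3, SLC39A3, ATP7B, TSC22D3, GCLM, HSPH1, SLC7A11, HERPUD1, MT1L and MT2P1 were chosen after their values were seen, and so were the markers named singly. The members and lists were chosen with earlier results of these data known. Promoter sequences are from RefSeq (GRCh38.p14).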

Additional observations from a re-analysis of the deposited data

How the results depend on the processing

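No member passed under any of the 19 alternatives in the plan or the 6 fits added after seeing the data (the GC and length correction with each library left out), against 39 passing genes in all. That total was 25 with total counts alone, 127 without a low-count filter, 160 in DESeq2, 22 and 19 in limma on log2(FPKM + 1) and log2(FPKM + 0.1), 0 on log2(FPKM + 1) without a filter, 115 with the GC and length correction and 145 with the replicate block and that correction. It ran from 4 (without FBS replicate 1) to 257 (without serum-starved replicate 3) with 1 library left out, and with the correction as well it was 24, 35 and 84 leaving out FBS replicates 1, 2 and 3 and 106, 61 and 93 leaving out serum-starved replicates 1, 2 and 3. MT1E, MT1F, MT1M, MT1X, MT2A, SLC30A1 and SLC39A6 kept a fold change below 0 in all 19. With 1 library left out, the log2 fold change of MTF1 ranged from -0.0459 (serum-starved replicate 3 left out) to 0.635 and that of SLC39A10 from -0.705 to 0.384, with 0.00218 and 0.0529 among them when FBS replicate 1 or 3 was dropped. SLC39A10 stood at 0.0453 with the GC and length correction, at 0.31 with it and FBS replicate 3 dropped, and at 0.40 with it and serum-starved replicate 1 dropped. The cause was not tested.

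Same-numbered libraries did not deviate together (correlations of -0.26, 0.10 and -0.08, and 1 of 6 libraries correlated best with its own number), so the numbers were not taken as pairs. With the replicate block 43 genes and 0 members passed. The low counts of SLC30A1, SLC39A10 and MT1F, down to 13 a library, limit their precision.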
